A study of Homo sapiens with 12 samples.

Results

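The cytosolic ribosomal protein genes were examined in MDA-MB-231-ERβ cells, a triple negative breast cancer cell line that carries a doxycycline (dox)-inducible full-length estrogen receptor β (ERβ). Members were chosen by symbol: RPL or RPS followed by a number, with or without a paralog suffix, together with RPLP0, RPLP1, RPLP2, RPSA and FAU. The rule found 83 of the 12451 genes used, 50 of the large and 33 of the small ribosomal subunit, and it used no measured value. RPL36A had 3 to 115 reads in the libraries and did not reach the filter on low levels, so that 82 were tested among 11303 genes. The filter asked for an RPKM (reads per kilobase of exon scaled to the library total) of 1 or more in 3 or more libraries. It used library totals alone, whereas the RPKM values given below also use TMM factors.

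All cells were grown in charcoal-stripped serum with dox for 5 days. The 4 groups of 3 libraries were vehicle, TNFα (20 ng/ml for the final 3 h), E2 (1 nM 17β-estradiol for 5 days) and E2+TNFα (both). For E2+TNFα, dox is named by the treatment protocol but not by the sample's own treatment label. Doxycycline was thus present in the controls too, and ERβ came from an introduced construct rather than from the cells' own level of the receptor. Dishes were plated in triplicate. The methods speak of biological replicates for cell experiments in general, but no label says whether these 3 dishes per group came from separate cultures, and p-values measure only the spread between them.

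Ribosomal proteins are assembled with ribosomal RNA in the nucleolus into a small subunit, which decodes the mRNA, and a large subunit, which forms the peptide bond. The genes are among the most strongly transcribed of a growing cell. Their mRNAs start with a tract of pyrimidines, the terminal oligopyrimidine (TOP) motif, through which mTOR signalling and LARP1 set their translation, and MYC raises their transcription. Almost all of them have processed pseudogenes, intronless copies of the mRNA that were inserted elsewhere in the genome. A short read from such a gene can match several loci.

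Totals per library were 35769865 to 39943664 counted reads in vehicle, 19504540 to 30499211 in TNFα, 7652016 to 15755240 in E2 and 16790200 to 36729990 in E2+TNFα. E2 was the shallowest group. The first principal component over all genes tested, with 68.7% of the variance, separated the 3 vehicle libraries from the other 9. The study corrected for batches that the labels do not name, and batch and vehicle cannot be told apart here. ESR2, which encodes ERβ, was detected in every library, at 473 ± 14.9 CPM (counts scaled to the library total with TMM factors; SD, n = 3) in vehicle, 255 ± 26.7 in TNFα, 306 ± 14.7 in E2 and 448 ± 53.2 in E2+TNFα, so that the receptor's own transcript differed between groups. NFKBIA, a target of TNFα signalling, stood at 68.8 to 73.1 CPM in vehicle, 356 to 378 in TNFα, 142 to 159 in E2 and 245 to 305 in E2+TNFα. Of 10 markers of MDA-MB-231, 9 were in the table and all 9 reached 1 RPKM in every library. Of 10 genes that the line should lack, 6, among them ESR1 and PGR, were not among the genes used here. ERBB2 (15.6 to 22.5 RPKM), EPCAM (3.81 to 9.12) and GATA3 reached 1 RPKM in every library. CDH1 (0.327 to 9.88 RPKM) reached it in some libraries but not in all.

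The starts of the mRNAs and stretches of their coding sequence are shown first, because the pyrimidine start is the family's best known shared sequence and stretches shared with other loci bear on how its reads were counted. RefSeq promoters (GRCh38.p14) were matched for 67 of the 83 genes. A start was counted as TOP where a C at the start site opened a run of at least 5 pyrimidines. It was present in 48 of 67 genes (71.6%), against 5.14% of 27305 genes in the promoter table. Within 10 bases before and 20 bases from the start, the letters CTTTC were found on the gene's strand in 34 of 67 genes (50.7%, against 5.29% of all) and on the other strand in 2 (2.99% against 4.0%). TCTTT, which can overlap CTTTC, was found on the gene's strand in 22 genes (32.8% against 4.67%) and on the other strand in 1 (1.49% against 3.45%), and 16 genes held both on their own strand. The sequences run from 5 bases before the start to 20 bases into the transcript, with the pyrimidine run in capitals, and were chosen from genes described below.
RPL11: gctttCTCTTCCTgctctccatcat
RPS27: tcgctCCTTTCCggcggtgacgacc
RPL21: tctttCCTTTCggccggaaccgcca
RPS18: ccgctCTCTCTTCCacaggaggcct
RPLP2: gccttCCTTTTCCTCCCTgtcgcca
RPL28: ccttcCTCTTTCCgtctcaggtcgc
RPS3: cacttCCTTTCCTTTCagcggagcg
RPS6: tggccCTCTTTTCCgtggcgcctcg
RPS27A: tcttcCTTTTCgatccgccatctgc
RPS27L: cgagcgcagatcgcttgcagcttgc

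RPS27L, a paralog of RPS27, is included as a start with no such run. The others lie at, for example, chr1:23691801-23691825 (RPL11, plus strand), chr13:27251553-27251577 (RPL21, plus strand) and chr9:19380217-19380241 (RPS6, minus strand). In the TOP class the median log2 fold change between E2+TNFα and E2 was -0.49 over 47 tested genes, and in the 19 tested genes with a promoter but no such start it was -0.52.

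For every gene, the share of 50-base windows of its main GENCODE v44 transcript with an identical stretch elsewhere in hg38 was computed, 50 bases being the read length. The median share was 30.6% over the ribosomal protein genes and 0% over the other genes tested. It was under 10% in 27 ribosomal protein genes, at least 50% in 26 and in between in 30. GENCODE names 1603 pseudogenes of these 83 genes, and only RPL22L1, RPL26L1, RPL39L and RPS27L had none. One exonic window each of 4 genes is shown, 3 from genes far below vehicle in the treated groups and 1, RPLP1, from a gene above it. Each was chosen as the most copied of the gene's coding windows considered. Windows with a copy on a chromosome that was left out were not considered, so that a gene can have a more copied window.
RPL21: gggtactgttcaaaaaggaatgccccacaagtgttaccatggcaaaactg
RPL9: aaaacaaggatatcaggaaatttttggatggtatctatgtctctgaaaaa
RPS27: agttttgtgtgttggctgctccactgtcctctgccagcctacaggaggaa
RPLP1: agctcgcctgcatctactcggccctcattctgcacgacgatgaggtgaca

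The RPL21 window (chr13:27255247-27255296, plus strand) had 16 further identical copies on 14 chromosomes. The RPL9 window (chr4:39454570-39454619, minus strand) had 5, the RPS27 window (chr1:153991609-153991658, plus strand) 8 and the RPLP1 window (chr15:69452965-69453014, plus strand) 1. By the same choice, RPL39, RPS18 and RPS28, also far below vehicle, had windows with 6, 2 and 3 copies. RPS2 and RPS9, above vehicle in all treated groups, had 10 and 2, and RPL3 had 3. How reads with several matches were counted is not given in the sources used here, so that levels of genes with many copies are uncertain.

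Ribosomal protein genes took 5.92, 5.29 and 5.78% of all counted reads in the 3 vehicle libraries, and 3.78, 4.20 and 4.40% in TNFα. In E2 they took 5.67, 4.75 and 4.33%, and in E2+TNFα 4.10, 3.79 and 3.26%. The mean share was 5.66% ± 0.332 (SD, n = 3) in vehicle, 4.13% ± 0.316 in TNFα, 4.92% ± 0.689 in E2 and 3.71% ± 0.420 in E2+TNFα. The vehicle libraries lay above all TNFα and E2+TNFα libraries, the E2 libraries lay above all E2+TNFα libraries, and the E2 and TNFα libraries overlapped. Large-subunit genes made up 3.09% ± 0.410 of reads in E2 and 2.36% ± 0.239 in E2+TNFα, and small-subunit genes 1.83% ± 0.279 and 1.35% ± 0.182. Over the 27 genes with under 10% of windows copied the order differed: the share was 1.67% ± 0.113 in vehicle, 1.74% ± 0.0561 in TNFα, 1.96% ± 0.284 in E2 and 1.58% ± 0.0868 in E2+TNFα, with E2 highest and E2+TNFα lowest. In bulk RNA, fewer transcripts of these genes per cell, a change in the rest of the mRNA and a change in the mix of cells cannot be told apart.

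**Figure D1:**
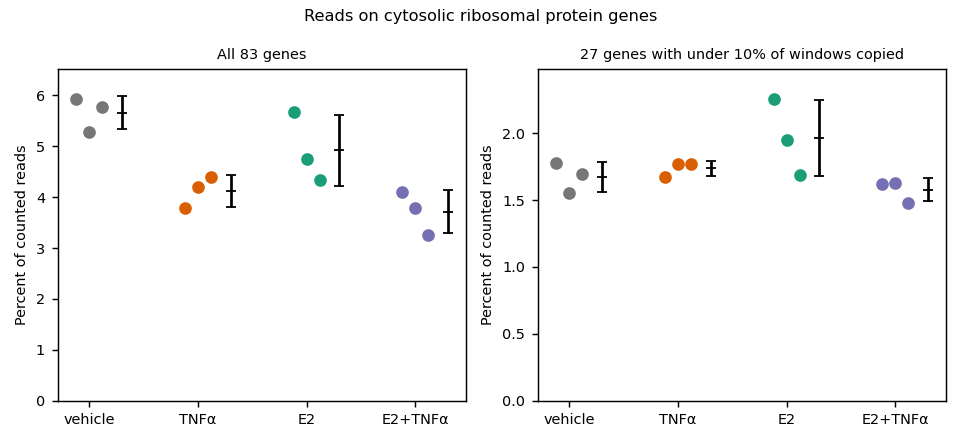
Percent of counted reads (vertical axes from 0) on all 83 ribosomal protein genes (left) and on the 27 with under 10% of windows copied (right), by treatment group. Points are single libraries and bars show the mean ± SD of 3. On the left, the vehicle libraries (5.29 to 5.92%) lie above all TNFα and E2+TNFα libraries; on the right vehicle lies within the range of the other groups.

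Levels per length, in RPKM over all 12 libraries, were highest for RPL8 (mean 3335), which lies near the peptidyl transferase centre and RPLP1 (3306), of the stalk that recruits elongation factors, and RPLP0 (1901), also of the stalk, was among the 4 highest. The lowest tested levels were those of the paralogs RPL22L1 (14.6), RPS27L (24.5) and RPL26L1 (24.6) and of RPL17 (21.0), whose product lines the exit tunnel. RPL8 stood at 1714 ± 133 RPKM (SD, n = 3) in vehicle, 3782 ± 259 in TNFα, 4286 ± 884 in E2 and 3559.7 ± 463 in E2+TNFα, and it did not differ from RPLP1 beyond the spread (3687 ± 304 in TNFα and 4633 ± 858 in E2). In vehicle the order was another one, with RPS18 highest at 3379.8 ± 130.3 and RPS10 lowest at 7.55 ± 0.569 RPKM. Exons of the read-through gene RPS10-NUDT3 cover 83.2% of the exon bases of RPS10, and those of RPL17-C18orf32 52.5% of RPL17, so that the levels of these genes depend on how shared reads were assigned.

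E2+TNFα was compared with E2 to ask how TNFα altered the family when E2 was present. The genes stood lower with TNFα almost without exception: 80 of 82 had a lower fitted level, 43 passed the test (adjusted p of at most 0.1 in edgeR's quasi-likelihood test) and 0 were higher. Over all genes tested 48.7% had a lower fitted level, 3.34% were called lower and 2.65% higher. The median log2 fold change was -0.52 (from -1.28 to 0.06), beside 0.01 over all genes. It was -0.48 in the large subunit, with 23 of 49 called lower, and -0.56 in the small subunit, with 20 of 33. None reached the study's size threshold (absolute log2 fold change of at least 1.5 with p under 0.05 and adjusted p of at most 0.1), which 0.407% of all genes passed. At an unadjusted p under 0.05, 60 were lower and 0 higher, beside 1189 and 1007 of all 11303 genes. DESeq2 called 52 lower and 0 higher, beside 834 and 513 of all genes.

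The count, but not the sign of the median, changed with single libraries left out and with the libraries and scaling used in the fit. Without E2+TNFα replicate 2, 3 were called lower (0.142% of all genes), without E2 replicate 1, 9 (0.434%), and without E2 replicate 2, the shallowest library, 27 (2.69%). The median over the genes stayed between -0.63 and -0.41 whichever library was left out. With the vehicle libraries left out of the fit 14 were called lower (0.522% of all genes), with only the E2 and E2+TNFα libraries 8 (0.106%), and with scaling by library size alone 22 (1.37%). With all libraries thinned to the smallest total 41 were lower, beside 293 of 11303 genes. With trends in GC content and length removed, the background itself moved. Of all 11303 genes, 1649 were then called lower and 245 higher, with a median of -0.16. The count of ribosomal protein genes in that setting is not given here. E2 was also the shallowest group, and the part of depth in the difference was not tested.

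RPL11, which with RPL5 and the 5S RNA can bind MDM2 outside the ribosome, was read at 699, 694 and 657 CPM in the E2 libraries and at 459.6, 432 and 449 in E2+TNFα. The groups did not overlap, and the log2 fold change was -0.61 (SE 0.11, adjusted p = 0.0103). RPL5 was read at 330.0, 172 and 248 CPM in E2 and 251, 288 and 219 in E2+TNFα, groups that overlapped, with a log2 fold change of 0.01 (SE 0.19, adjusted p = 0.979). RPL5 and the paralog RPL7L1 were the 2 genes with a fitted level above that in E2.

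RPS27, a zinc-finger protein of the small subunit, and RPS13, also of the small subunit, were among the 3 largest falls. RPS27 was read at 50.9, 56.6 and 41.6 CPM in E2 and 35.1, 15 and 12.3 in E2+TNFα, where replicate 1 was higher than the others, and fell by 1.28 on the log2 scale (adjusted p = 0.0467). RPS13 was read at 143, 196 and 106 and at 95.8, 62.7 and 53.2 CPM, a log2 fold change of -1.07 (SE 0.23, adjusted p = 0.0277). In both genes all E2+TNFα libraries lay below all E2 libraries, and replicate 1 was the highest of the E2+TNFα libraries. Of their windows, 94.4 and 37.7% were copied.

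The stalk proteins RPLP0, RPLP1 and RPLP2 had different values. RPLP0, the core of the stalk, was read at 3343, 3867 and 2534 CPM in E2 and 2332, 1584 and 1652 in E2+TNFα, and its log2 fold change was -0.81 (SE 0.18, adjusted p = 0.0275). RPLP1 was at 2533, 2708 and 1875 and 1753, 1628 and 1721 CPM, with a log2 fold change of -0.48 (SE 0.14, adjusted p = 0.0717). RPLP2, which pairs with RPLP1, was at 302, 396 and 227 and 237, 219 and 269 CPM, groups that overlapped, and did not pass (-0.35, adjusted p = 0.258). The difference between the 3 genes was not tested.

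Among proteins of the small subunit with roles of their own, RPSA, also known as the laminin receptor precursor, fell by 0.93 on the log2 scale, from 854, 911 and 572 CPM in E2 to 531, 345 and 351 in E2+TNFα (adjusted p = 0.0264). RPS3, at the mRNA entry channel, fell by 0.66, from 2134, 2296 and 1705 to 1470.2, 1169.5 and 1257 CPM (adjusted p = 0.0236). Both were lower in every E2+TNFα library than in any E2 library. RPS6, the substrate of S6 kinase, was read at 749, 468 and 588 CPM in E2 and 483, 503 and 420.4 in E2+TNFα and did not pass (-0.36, adjusted p = 0.216). RPS19, the gene most often mutated in Diamond-Blackfan anaemia, did not pass either (-0.12, adjusted p = 0.721).

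Of the genes whose product is made as a fusion, FAU, with a ubiquitin-like domain, had a log2 fold change of -0.48 (SE 0.14, adjusted p = 0.0908), and RPS27A, with ubiquitin, had -0.71 (SE 0.24, adjusted p = 0.127), which did not pass. RPL13A, which takes part in interferon-dependent translational silencing, had -0.52 (SE 0.12, adjusted p = 0.0394). RPL41, the shortest of the proteins, did not pass at -0.41 (adjusted p = 0.137), although its groups did not overlap (557, 434 and 371 CPM in E2 and 356, 357 and 309.8 in E2+TNFα).

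**Figure D2:**
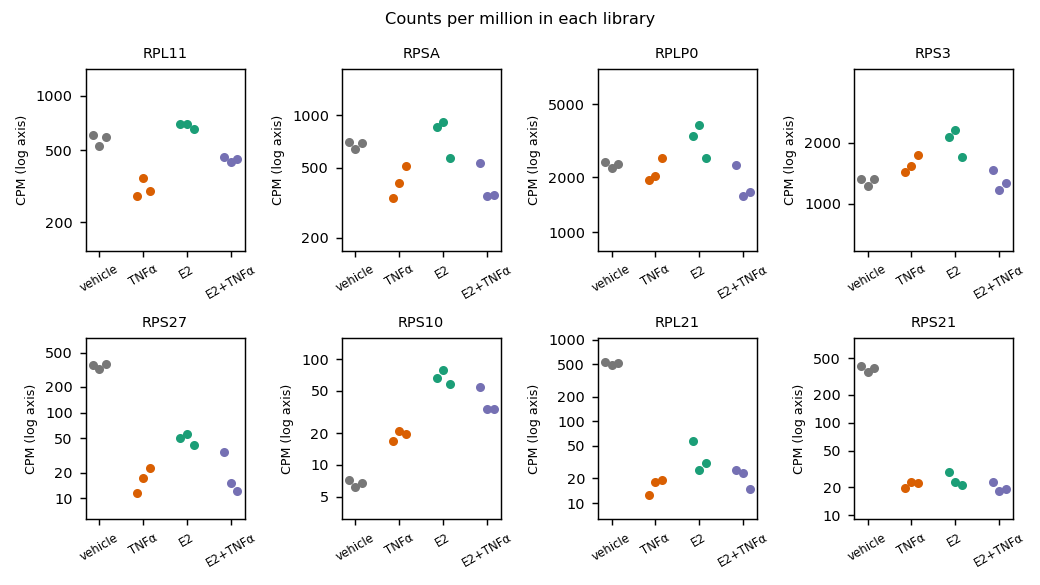
CPM in each library (log axes, 3 libraries a group) for 8 ribosomal protein genes. RPL11, RPSA and RPS3 show E2+TNFα libraries below all E2 libraries, while RPS27, RPL21 and RPS21 show the vehicle libraries far above the other 9 and RPS10 shows them below.

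E2 was next compared with TNFα, the 2 single treatments. This comparison shares the E2 libraries with the one above. Of 82 genes, 58 were higher in E2 and 0 lower by edgeR, beside 24.9% and 21.8% of all genes. At an unadjusted p under 0.05 the counts were also 58 and 0, beside 2843 and 2510 of 11303 genes. DESeq2 gave 56 and 0, beside 2819 and 2658 of all genes. The median log2 fold change was 0.61, beside 0.01 over all genes, and 7 genes had a negative value, where 49.0% of all genes did. The genes with under 10% of windows copied had a median of 0.38 with 15 of 27 called higher, and those with at least 50% had 0.84 with 24 of 26. RPS10 and RPS27 passed the study's size threshold, 2 of 82, beside 5.97% of all genes. Without E2 replicate 1 the count was 37 (21.2% of all genes), and with scaling by library size alone it was 37 (18.2%). With trends in GC content and length removed, 45 were higher and 6 lower, beside 36.6% and 19.1% of all genes.

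RPS10, a protein of the head of the small subunit, was read at 17.0, 20.8 and 19.6 CPM in TNFα and 66.4, 79.4 and 57.5 in E2, a log2 fold change of 1.82 (SE 0.19, adjusted p = 2.25e-06). RPS27 was read at 11.4, 17.3 and 22.7 CPM in TNFα, below all E2 libraries, with a log2 fold change of 1.54 (SE 0.32, adjusted p = 0.0013). RPL7 followed, at 8.10, 28.7 and 18.7 CPM in TNFα and 83.7, 19.9 and 46.0 in E2, groups that overlapped, with a log2 fold change of 1.46 (SE 0.51, adjusted p = 0.0351). RPL11 was read at 278, 351 and 296 CPM in TNFα, all below E2 and E2+TNFα, and differed from E2 by 1.15 (SE 0.11, adjusted p = 1.11e-06). It has 2.98% of its windows copied.

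RPSA was also higher in E2, by 0.89 (SE 0.20, adjusted p = 0.00243), as was RPLP0, by 0.58 (SE 0.17, adjusted p = 0.0161), and RPS27A, by 1.12 (SE 0.24, adjusted p = 0.00201). RPL41 was read at 239, 306 and 252 CPM in TNFα and was higher in E2 by 0.77 (SE 0.15, adjusted p = 6.47e-04). RPS3 (0.38, adjusted p = 0.0335), FAU (0.39, adjusted p = 0.0424) and RPLP1 (0.33, adjusted p = 0.0652) passed with smaller values. With those trends removed, FAU and RPLP1 changed sign (-0.05 and -0.16). RPS6, RPS19, RPL5, RPL13A and RPLP2 lay between -0.16 and 0.18 and did not pass.

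E2+TNFα was compared with TNFα to ask what E2 altered when TNFα was present, with both groups shared with the comparisons above. Here 10 genes were higher and 9 lower, 12.2 and 11% of 82, where 24.4% and 21.0% of all genes were called. The median log2 fold change was -0.05, beside 0.04, and none of the 82 passed the size threshold that 5.56% of all genes did; 19 passed the adjusted p alone. Which library was left out moved the counts between 5 and 21 higher and between 2 and 15 lower, with 21 higher without E2+TNFα replicate 3, 5 without TNFα replicate 1, TNFα replicate 3 or E2+TNFα replicate 1, 6 without E2+TNFα replicate 2, 15 lower without E2 replicate 2 or 3, 14 without E2+TNFα replicate 1, 2 without E2+TNFα replicate 2 and 3 without TNFα replicate 3. The calls over all 11303 genes moved too. Higher calls ran from 2068 without TNFα replicate 1 to 3075 without E2+TNFα replicate 3. Lower calls ran from 1898 without TNFα replicate 3 to 3118 without E2 replicate 2. The split was 6 higher and 13 lower with library size alone (beside 21.3% and 23.5% of all genes), 8 and 12 with the size factors of DESeq2 (beside 22.8% and 22.7%), 9 and 14 in DESeq2 itself (beside 24% and 23.9%), and 8 and 32 after removal of trends with GC content and length (beside 26.5% and 27.3%).

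The 3 largest rises were those of RPS10, from 17.0, 20.8 and 19.6 CPM in TNFα to 54.5, 33.8 and 34.0 in E2+TNFα (1.09, SE 0.19, adjusted p = 3.09e-04), RPS25, which some viral and cellular internal ribosome entry sites need, and RPL17. RPS25 was read at 52.9, 78.6 and 53.4 and 109, 121 and 76.2 CPM, with groups that overlapped at 1 library of each (0.73, SE 0.22, adjusted p = 0.0163). RPL17 was read at 17.6, 21.7 and 15.6 and 25.3, 29.1 and 32.5 CPM (0.66, SE 0.17, adjusted p = 0.00691). RPS10 and RPL17 are the 2 genes with over 50% of exon bases shared with a read-through gene. RPL11 also rose, from 278, 351 and 296 to 459.6, 432 and 449 CPM (0.54, SE 0.11, adjusted p = 0.00147).

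The 3 largest falls were of RPL13A (-0.55, SE 0.12, adjusted p = 0.0026), RPL28 (-0.47, SE 0.17, adjusted p = 0.0392) and RPLP2 (-0.44, SE 0.16, adjusted p = 0.0466). RPL13A was read at 721, 738 and 852 CPM in TNFα and 577, 471 and 529.6 in E2+TNFα. RPL28, a protein of the large subunit surface, was read at 1029, 896 and 957 and 657, 598 and 829 CPM, and RPLP2 at 315, 328 and 342 and 237, 219 and 269 CPM. In all 3 genes the E2+TNFα libraries lay below all TNFα libraries. RPL28 and RPLP2 have 2.02 and 0.280% of windows copied.

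**Figure D3:**
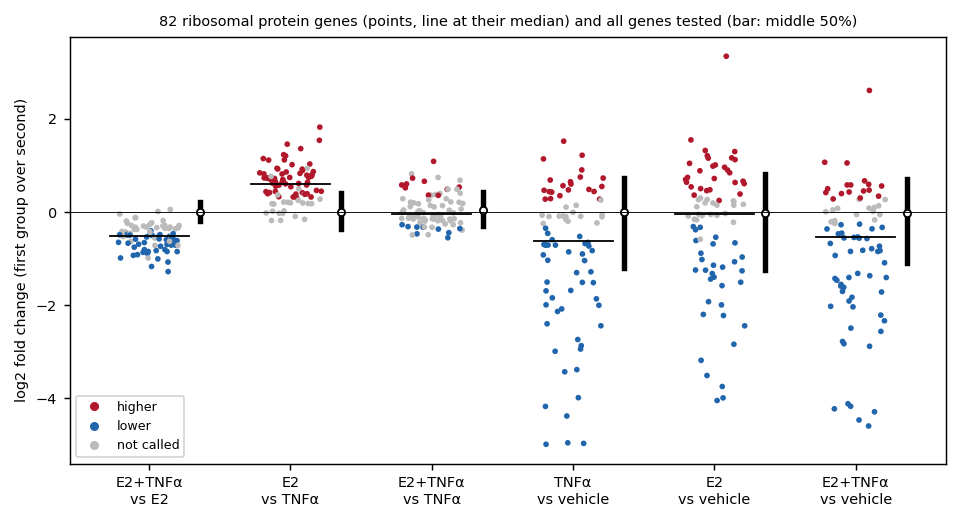
Fitted log2 fold change (first group over second) of the 82 tested ribosomal protein genes in 6 comparisons, as points coloured by call (adjusted p of at most 0.1), with a line at their median. The black bar spans the middle 50% of all 11303 genes tested with their median as a circle. All but 2 points sit below 0 in E2+TNFα against E2 (median -0.52) and all but 7 above it in E2 against TNFα (median 0.61), and they spread down to -4.99 against vehicle.

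The comparisons with vehicle carry the batch limit given above and share the 3 vehicle libraries, so that their values are set side by side only. The family split, with members in both directions: in TNFα against vehicle 21 genes were higher and 45 lower (beside 40.3% and 41.6% of all genes), in E2 29 and 32 (beside 40.1% and 41.7%), and in E2+TNFα 17 and 49 (beside 39.1% and 41.5%). The medians were -0.62, -0.04 and -0.54. With library size alone as the scaling the splits were 12 and 52 in TNFα (beside 34.0% and 46.5% of all genes), 19 and 42 in E2 (beside 30.1% and 51.8%) and 7 and 54 in E2+TNFα (beside 31.2% and 48.4%). With an unwanted factor estimated from housekeeping genes removed, TNFα gave 2 and 19, beside 8.14% and 10.4% of all genes. By the study's size threshold 26, 15 and 23 were regulated, beside 26.7%, 30.5% and 25.1% of all genes. In these 3 comparisons 14 genes were regulated throughout, 13 of them lower: RPL7, RPL9, RPL21, RPL34, RPL39, RPS3A, RPS7, RPS18, RPS21, RPS24, RPS25, RPS27 and RPS28. RPS10 was higher throughout. How many of all genes were regulated in all 3 comparisons was not counted, so that the 14 have no background beside them.

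RPL9 was read at 674, 627 and 701 CPM in vehicle and at 19.3, 22.1 and 21.9 in TNFα, 46.5, 40.7 and 33.9 in E2 and 35.4, 27.1 and 28.5 in E2+TNFα, and its log2 fold changes against vehicle were -4.99, -4.05 and -4.46. RPL21 was read at 526, 489 and 523 CPM in vehicle and at 12.7, 17.8 and 19.2 in TNFα, 56.7, 25.5 and 30.8 in E2 and 25.7, 23.4 and 15.1 in E2+TNFα, with -4.95, -3.75 and -4.59. Both are proteins of the large subunit whose windows, one of which is printed above for each gene, are copied at 89.2% in RPL9 and throughout in RPL21. RPL7 fell by 4.97 in TNFα, from 587, 543 and 606 CPM in vehicle.

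RPS21, of the small subunit, showed a fall of similar size with almost no copied sequence (0.813% of windows): 415, 357 and 389.8 CPM in vehicle, 19.7, 22.5 and 22.3 in TNFα, 29.1, 22.6 and 21.1 in E2 and 22.6, 18.0 and 19.1 in E2+TNFα, with log2 fold changes of -4.17, -3.99 and -4.29. The 9 libraries with a treatment lay within 18.0 to 29.1 CPM. RPS10 was read at 7.13, 6.13 and 6.68 CPM in vehicle, below all others, and rose by 1.52, 3.35 and 2.61.

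RPLP1 and RPL8 rose in all 3 groups. RPLP1 was read at 867, 752 and 812 CPM in vehicle and 1719, 1919 and 2026 in TNFα, and its log2 fold changes were 1.22, 1.55 and 1.07. RPL8 was read at 1851, 1588 and 1692 CPM in vehicle and 4072, 3646 and 3605 in TNFα, with 1.14, 1.32 and 1.05. They have 9.79 and 3.01% of windows copied. RPS6 and RPS19 did not pass against vehicle in any group, with values between -0.25 and 0.11.

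Copied sequence moved with the difference from vehicle, in these genes and in others. The 26 ribosomal protein genes with at least 50% of windows copied had medians of -1.17 in TNFα, -0.46 in E2 and -1.20 in E2+TNFα against vehicle, and the 27 with under 10% had -0.09, 0.30 and -0.17. The 285 other genes with at least 50% had medians of -1.35, -1.06 and -1.03, and the other genes with under 10% had 0.06, 0.01 and 0.01. Across the 82 genes, which are not independent replicates and share the libraries, Spearman's rho of the TNFα to vehicle value was -0.40 with the share of windows copied and 0.45 with GC content. The part of either in the difference from vehicle was not tested.

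Between E2+TNFα and E2 the 285 other genes with at least 50% of windows copied had a median of 0.00, while the ribosomal protein genes had -0.36 (12 of 27 called lower) under 10%, -0.52 (18 of 29) between, and -0.68 (13 of 26) at 50% or more. Spearman's rho with the share of windows copied was -0.37 over 82 genes, and with GC content -0.10.

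**Figure D4:**
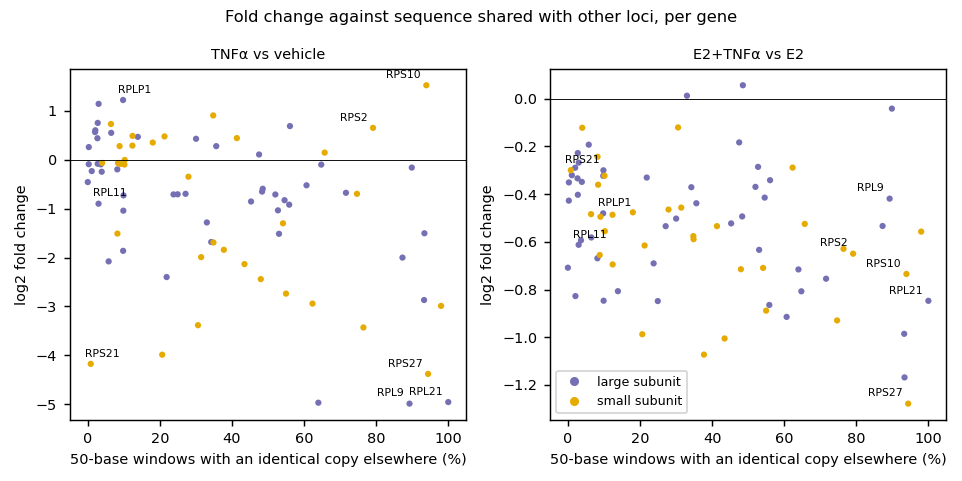
Log2 fold change of each tested ribosomal protein gene (vertical axis) against the percent of its 50-base windows with an identical copy elsewhere in hg38 (horizontal axis), for TNFα against vehicle (left) and E2+TNFα against E2 (right), coloured by subunit. On the left RPL21 and RPL9 lie near -5 with many copies but RPS21 lies at -4.17 with almost none, and on the right all but 2 genes lie below 0 at every share of copies.

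The interaction, the TNFα response with E2 minus that without, tests whether E2 altered the response, and it also rests on vehicle. Of 82 genes 31 had a positive and 28 a negative interaction, beside 39.0% and 37.6% of all genes (6 and 9, beside 8.37% and 6.79% of all genes, with the unwanted factor removed, where RPL7 turned negative at -0.93), and 19 passed the size threshold, beside 31.8% of all genes. Of these, 17 were positive and were led by RPL9 (4.57, SE 0.20, adjusted p = 6.20e-10), RPL7 (4.25, SE 0.73, adjusted p = 1.18e-04) and RPL21 (4.11, SE 0.37, adjusted p = 5.49e-07), for which TNFα against vehicle was near -5 and E2+TNFα against E2 was between -0.85 and -0.42. The 3 largest negative values were of RPS10 (-2.26, SE 0.27, adjusted p = 4.31e-06), RPLP1 (-1.70, SE 0.19, adjusted p = 3.05e-06) and RPS9 (-1.48, SE 0.21, adjusted p = 1.77e-05), which helps set decoding accuracy. The interaction was small and did not pass for RPL11 (0.29), RPS6 (-0.29), RPSA (-0.23) and RPS19 (-0.06).

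**Figure D5:**
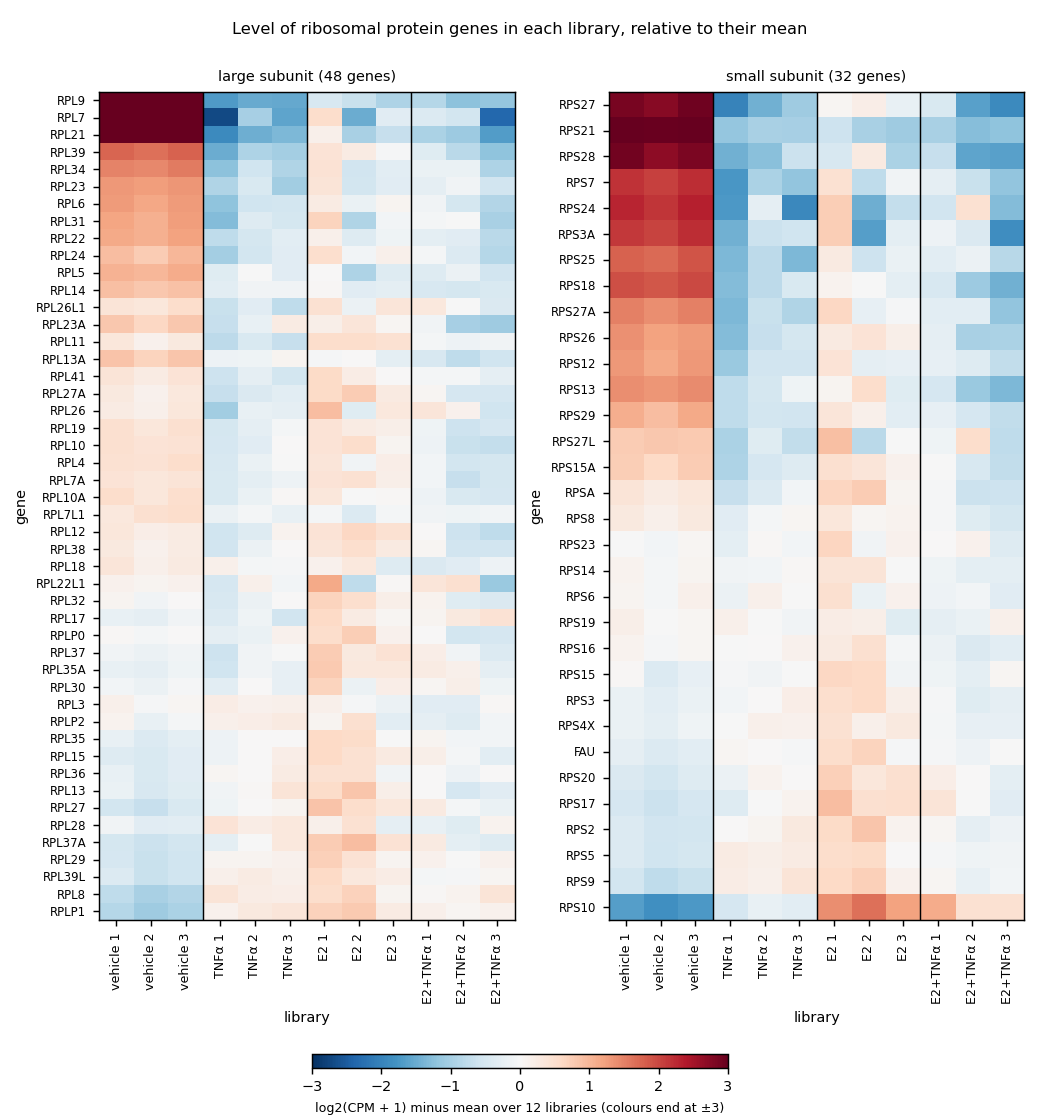
Log2(CPM + 1) of 80 of the 82 tested ribosomal protein genes in each of 12 libraries, minus the gene's mean over the libraries (colours end at ±3), with large-subunit genes on the left and small-subunit genes on the right, ordered by TNFα against vehicle. The 3 vehicle columns are red for the genes at the top, such as RPL9 and RPS27, and blue for RPS10, while most genes are redder in the E2 than in the E2+TNFα columns.

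Paralogs of ribosomal proteins were compared with their parents. RPL3L and RPL10L were not among the genes used here. RPL39L was read at 34.8, 29.1 and 30.4 CPM in vehicle, 51.6, 55.1 and 52.0 in TNFα, 70.3, 58.2 and 54.8 in E2 and 44.9, 45.6 and 48.3 in E2+TNFα, and it rose against vehicle by 0.75, 0.96 and 0.56. Its parent RPL39, which lines the exit tunnel, fell from 469.7, 439.5 and 477 CPM in vehicle to 48.9, 72.8 and 68.3 in TNFα, with -2.87, -1.51 and -2.49, so that the pair moved in opposite directions. The share of windows copied was 2.76% in RPL39L and 93.3% in RPL39. Between E2+TNFα and E2 both fell, RPL39L by 0.40 (adjusted p = 0.095) and RPL39 by 0.99 (adjusted p = 0.0188).

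RPS27L, a p53 target, was read at 41.1, 42.0 and 41.2 CPM in vehicle and 11.7, 18.2 and 13.7 in TNFα (-1.51, SE 0.36, adjusted p = 0.00125), while RPS27 fell by 4.38. RPS27L did not pass between E2+TNFα and E2 (-0.24, adjusted p = 0.758). RPL26L1 was higher in E2 than in TNFα (0.87, SE 0.21, adjusted p = 0.00439), as was RPL26 (0.86, SE 0.29, adjusted p = 0.0286). RPL22L1 did not pass in any comparison and varied within groups, from 15.2 to 59.1 CPM in E2, whereas RPL22 fell by 1.68 in TNFα against vehicle. RPL7L1, which is thought to act in ribosome assembly, differed from E2 by 0.06 in E2+TNFα and did not pass.

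Other genes of translation were taken from lists, and their values are edgeR log2 fold changes. Their counts are to be read against the 2.65% higher and 3.34% lower of all genes in E2+TNFα against E2 and the 24.4% and 21.0% against TNFα. Those of the initiation factors against TNFα (13.8% in each direction) lie below them. In the mitochondrial, TOP, assembly, RNA polymerase I and regulator lists, 10.3, 0, 7.5, 13.3 and 18.75% were higher against TNFα, all below that share of all genes. Lower were 24.4, 47.6, 37.5, 33.3 and 31.25%, all above it. At an unadjusted p under 0.05, 1007 of all 11303 genes were higher and 1189 lower in E2+TNFα against E2. Of 78 mitochondrial ribosomal proteins, 13 were lower and 0 higher in E2+TNFα than in E2, with a median of -0.25 (29 lower and 1 higher at an unadjusted p under 0.05), and MRPL52 fell by 0.64 (adjusted p = 0.0416) and MRPS6 by 0.59 (adjusted p = 0.0318). Against TNFα the median was 0.03 with 8 higher, led by MRPS18C at 0.91 (adjusted p = 0.0246) and MRPL51 at 0.82 (adjusted p = 2.38e-04), and 19 lower, led by MRPL10 at -0.85 (adjusted p = 5.79e-05) and MRPS18B at -0.78 (adjusted p = 1.66e-04). Of 21 tested translation factors and other genes with TOP mRNAs, 3 were lower and 0 higher than in E2 (median -0.20). They included EEF1G, a subunit of elongation factor 1, at -0.77 (adjusted p = 0.0329). Against TNFα 10 of these 21 were lower and 0 higher (median -0.26), led by HNRNPA1 at -0.77 (adjusted p = 0.00293) and NACA at -0.72 (adjusted p = 1.70e-04).

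Of 29 initiation factors, 5 were lower and 0 higher than in E2 (median -0.07), led by EIF3I at -0.58 (adjusted p = 0.0238) and EIF6, which keeps free large subunits apart from small ones, at -0.52 (adjusted p = 0.0624). Against TNFα 4 were higher, led by EIF5 at 0.55 (adjusted p = 0.0287) and EIF4G3 at 0.48 (adjusted p = 0.0141), and 4 lower, led by EIF3C at -0.83 (adjusted p = 3.68e-05) and EIF1 at -0.70 (adjusted p = 1.82e-04). Of 40 ribosome assembly factors, 3 were lower and 0 higher than in E2 (median 0.04), with SNU13 at -0.55 (adjusted p = 0.0258) and NHP2 at -0.47 (adjusted p = 0.0528). Against TNFα 3 were higher and 15 lower: SBDS, which releases EIF6 from the large subunit, stood at 1.02 (adjusted p = 4.03e-04), UTP3 at 0.68 (adjusted p = 0.00709), NOB1, the nuclease that finishes the small-subunit RNA, at -1.08 (adjusted p = 5.29e-06) and RRP12 at -0.94 (adjusted p = 1.97e-04).

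Of 15 genes of RNA polymerase I and its factors, 0 were higher and 0 lower than in E2 by edgeR (median -0.01; 1 and 4 at an unadjusted p under 0.05), and 2 were higher and 5 lower than in TNFα, led by TWISTNB at 0.65 (adjusted p = 0.0838), TTF1 at 0.56 (adjusted p = 0.0569), POLR1B at -0.91 (adjusted p = 1.42e-04) and ZNRD1 at -0.79 (adjusted p = 3.52e-04). Of 16 regulators of ribosomal protein genes, 2 were higher and 0 lower than in E2: MXD1, a repressor of MYC targets, at 0.71 (adjusted p = 0.0262) and MYC itself at 0.44 (adjusted p = 0.0893). Against TNFα 3 were higher, led by MXD1 at 1.70 (adjusted p = 5.57e-07) and EIF4EBP2, an inhibitor of cap-dependent initiation, at 1.04 (adjusted p = 4.05e-06). There 5 were lower, led by DDIT4 at -4.47 (adjusted p = 6.65e-11) and SESN2 at -2.71 (adjusted p = 1.25e-08), both inhibitors of mTOR signalling.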

How the data were processed

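RNA was measured in 12 libraries of MDA-MB-231-ERβ cells (TruSeq stranded mRNA, 50-base paired-end reads). The deposited values are read counts per gene, which the authors made with TopHat2 2.1.0, featureCounts and hg38, per the submitters' processing notes and the methods; the batch correction of the study is not in these counts. From a table of 12567 lines, 46 repeated lines and 70 duplicates under a second symbol were removed, none of them a member. Counts were fitted with edgeR 4.0.16 (R 4.3.3), with TMM scaling, 4 group means, the quasi-likelihood test and Benjamini-Hochberg adjustment over the 11303 genes that reached 1 RPKM (computed here from the counts and the exon length) in 3 or more libraries. On simulated counts with 200 changed genes, in a comparison of E2 with TNFα, 200 were recovered and 18 of the 11303 were called without a change. The simulation checks the working of the fit and gives no measure of its power for the changes reported here. Depth is given with the results. Replicates differed by 14.7 to 355 times the variation of counting alone (chi-square over its degrees of freedom), so that all 3 of a group were kept as separate samples. Alternatives used DESeq2 1.42.0, other scalings, filters and designs, and each library left out. The genes, lists and tests were chosen with earlier results of these data known. Named genes were the 4 highest and 4 lowest by RPKM, the 3 largest rises and falls among called members of each comparison, the paralogs with their parents, and genes of known role. Of the lists, the 2 largest rises and falls against E2 and against TNFα were named. Some genes that this rule names are not reported here, and the heat map leaves 2 out.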

Additional observations from a re-analysis of the deposited data

Results flagged for a closer look

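The TNFα response differed between cells with and without E2, by edgeR's test of the interaction and with a difference of at least 1.5 on the log2 scale, in 10 of the named ribosomal protein genes. The interaction was positive for RPL21 (4.11, adjusted p = 5.49e-07), RPL39 (1.88, adjusted p = 2.78e-05), RPL7 (4.25, adjusted p = 1.18e-04), RPL9 (4.57, adjusted p = 6.20e-10), RPS21 (3.87, adjusted p = 3.56e-09), RPS25 (2.65, adjusted p = 4.11e-06), RPS27 (3.10, adjusted p = 2.32e-05) and RPS27A (1.73, adjusted p = 4.01e-04). It was negative for RPLP1 (-1.70, adjusted p = 3.05e-06) and RPS10 (-2.26, adjusted p = 4.31e-06). All 10 rest on the 3 vehicle libraries, which stood apart from the other 9, and by the same test and threshold 31.8% of all genes did likewise. Of the 82 ribosomal protein genes tested, 19 did. With an unwanted factor from housekeeping genes removed, the interaction of RPL7 turned negative. Groups of 3 libraries are too small for the test of single outlying samples.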

How the results depend on the processing

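Leaving out 1 library at a time gave, as higher and lower calls, 0 to 0 and 3 to 57 in E2+TNFα against E2, 37 to 60 and 0 to 2 in E2 against TNFα, 5 to 21 and 2 to 15 in E2+TNFα against TNFα, 16 to 22 and 41 to 46 in TNFα, 24 to 32 and 29 to 34 in E2 and 11 to 18 and 46 to 50 in E2+TNFα against vehicle, and 26 to 33 and 25 to 32 for the interaction. Over all 11303 genes the calls moved as well. They were 95 to 892 and 16 to 933 in E2+TNFα against E2, and 2350 to 3061 and 2080 to 2823 in E2 against TNFα. Against vehicle they were 4227 to 5055 and 4515 to 4810 in TNFα, 4197 to 4630 and 4507 to 4812 in E2, and 3957 to 4647 and 4520 to 4879 in E2+TNFα. For the interaction they were 4075 to 4483 and 3950 to 4606.

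Counts are followed in parentheses by the share of all genes called under the same setting. With library size alone as the scaling, 22 (1.37%) genes were lower in E2+TNFα than in E2, 37 (18.2%) higher and 2 (30.6%) lower in E2 than in TNFα, 6 (21.3%) higher in E2+TNFα than in TNFα, and 12 (34.0%), 19 (30.1%) and 7 (31.2%) higher in TNFα, E2 and E2+TNFα than in vehicle. With an unwanted factor from 20 housekeeping genes removed, 3 (27.1%) were lower in E2 than in TNFα, the calls against vehicle were 2 (8.14%) higher and 19 (10.4%) lower in TNFα, 15 (13.1%) and 12 (13.2%) in E2, and 9 (15%) and 27 (15.1%) in E2+TNFα, the interaction gave 6 (8.37%) and 9 (6.79%), and RPL7 reversed in it (-0.93).

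With GC and length trends removed, 6 (19.1%) were lower in E2 than in TNFα and 32 (27.3%) lower in E2+TNFα than in TNFα, and FAU (-0.047), RPLP1 (-0.16) and RPS19 (-0.26) reversed in E2 against TNFα. Fitting only the groups compared gave 8 (0.106%) lower in E2+TNFα than in E2. Leaving out vehicle, an alternative chosen after seeing the data, gave 14 (0.522%) there and 4 (16.5%) lower against TNFα, where DESeq2 gave 14 (23.9%). Among the 27 genes with few copies, also chosen afterwards and with the calls of the same fit, 8 (41.6%), 4 (41.7%) and 10 (41.5%) were lower than in vehicle in TNFα, E2 and E2+TNFα. Of these 27, 5 (39.0%) had a positive interaction. As shares of the 27, these counts were 29.6, 14.8, 37.0 and 18.5%, all below those of all genes. In the other direction, 9 (40.3%), 14 (40.1%) and 7 (39.1%) were higher than in vehicle, and 13 (37.6%) had a negative interaction. Those were 33.3, 51.9, 25.9 and 48.1% of the 27. They lay above the shares of all genes for E2 and the interaction, and below them for TNFα and E2+TNFα. The causes were not tested. Library size alone moved the median of all genes from 0.01 to 0.13 in E2+TNFα against E2 and from -0.02 to -0.38 in E2 against vehicle. Removing the trends moved it to -0.16 in E2+TNFα against E2, 0.14 in E2 against TNFα, 0.22, 0.36 and 0.21 in TNFα, E2 and E2+TNFα against vehicle and -0.37 for the interaction.

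The replicate numbers do not pair the libraries (same-number correlations of -0.48 to 0.47 over 18 pairs, 5 of them over 0.1). With the replicate block, 19 (0.858%) genes were lower in E2+TNFα than in E2. With the replicate block and the trends removed, 4 (17.9%) were lower in E2 than in TNFα, 5 (24.9%) higher and 27 (25.6%) lower in E2+TNFα than in TNFα, and FAU (-0.051) and RPLP1 (-0.16) reversed. With every library thinned to the depth of the shallowest, 41 (2.59%) were lower in E2+TNFα than in E2.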
